A study of Mus musculus with 23 samples.

Results

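The subject of this report is a set of 32 genes of glucose breakdown and of the HIF-1 pathway in murine bone marrow-derived macrophages (BMDM). They were chosen by name, as 3 glucose transporters, 12 genes of the upper and 6 of the lower part of glycolysis, 5 genes of lactate and pyruvate handling, and 6 genes of the HIF-1 oxygen-sensing pathway and its targets. All 32 were among the 26014 genes tested, and all 32 were read well above background on all 23 arrays, compared to 50.6% of all genes tested. BMDM came from male mice, labelled C57BL/6 and on a C57BL/6J background in the study's methods, that were wild-type (wt), lacked the kinase MK2 (MK2-/-), or lacked MK2 and its close relative MK3 (MK2/3-/-). The deletions were germline deletions, so that macrophages and all other marrow cells carried them. Marrow was cultured for 9 days with 10 ng/ml M-CSF, the growth factor that turns precursors into macrophages, and then received 100 ng/ml lipopolysaccharide (LPS, a bacterial cell wall component) or medium alone for 120 min. The groups held 4 arrays each, except the MK2-/- medium group with 3. Mice were 12 to 13 weeks old for wt, 10 to 13 for MK2-/- and 11 to 14 for MK2/3-/-, from 4 independent experiments. All arrays of a genotype lay on one slide, so that genotype and slide cannot be told apart. Treatment was compared within a slide.

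Glycolysis splits glucose into pyruvate, and in activated macrophages much of that pyruvate leaves the cell as lactate. HIF-1 is a transcription factor whose alpha subunit, encoded by Hif1a, is hydroxylated by the prolyl hydroxylases Egln1 and Egln3 when oxygen is present, then bound by the VHL protein and degraded. When the subunit persists, HIF-1 binds a short DNA core motif and drives genes for glucose uptake, glycolytic enzymes, lactate export and vessel growth. In macrophages, LPS is known to raise Hif1a transcription through NF-kappaB, and MK2 is known as a kinase downstream of p38 that acts on the stability and translation of inflammatory mRNAs.

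Levels are given as log2 of the quantile-normalised spot intensity, and differences as log2 values from limma with Benjamini-Hochberg adjustment over all 26014 genes, called at an adjusted p under 0.05. The intensity of different probes cannot be set against each other, so that levels are compared only within a gene. The share of probes above background was 47.5% to 60.8% on 22 arrays and 69.1% on MK2/3-/- medium replicate 2. The Mapkapk2 probe (MK2) read -3.31 and -3.50 against wt in medium in MK2-/- and MK2/3-/- BMDM, respectively, and -2.81 and -3.01 after LPS. The Mapkapk3 probe (MK3) read -1.62 in medium and -3.30 after LPS in MK2/3-/- BMDM. All 7 macrophage markers measured were above background on every array, and their summed level lay between 19.3 and 20.0 on the log2 scale. After LPS, Cd14 was called higher in all 3 genotypes. Fcgr1, Itgam and Mertk were called lower in wt, Fcgr1 and Mertk in MK2-/-, and Itgam in MK2/3-/- BMDM. With arrays scaled to their 75th percentile, only Mertk was called lower, in wt and MK2-/- BMDM. Of the neutrophil markers, 4 of 6 were above background on every array, with sums from 11.5 to 14.2 in medium and from 11.6 to 14.0 after LPS. Of the fibroblast markers, Col1a1 and Col1a2 were above background on every array, and the summed level of all 4 ranged from 9.07 to 16.7 in medium and from 9.78 to 16.4 after LPS. Of the dendritic cell markers, 1 of 3 was above background on every array, with sums from 5.96 to 8.58 in medium and from 9.87 to 11.0 after LPS. The T cell markers, with 2 of 4 on every array, summed to 9.88 to 11.2 in medium and 10.3 to 13.5 after LPS. None of the 3 mast cell markers was above background on every array, and they summed to 3.32 to 4.61 in medium and 4.11 to 5.95 after LPS. One gene of each of these lists, Zbtb46, Lck and Kit, was called higher after LPS in all 3 genotypes. The part of other cells in the results was not tested, and in such bulk RNA fewer cells of a type and less RNA per cell cannot be told apart.

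After LPS, the glucose transporter genes Slc2a1 and Slc2a6, the gene of the phosphofructokinase activator Pfkfb3, the enolase gene Eno2 and Hif1a rose in all 3 genotypes, whereas most of the enzymes that carry glucose to pyruvate and lactate kept adjusted p-values over 0.05. Slc2a1, Slc2a6, Pfkfb3, Eno2 and Hif1a were called higher, and Pfkfb4 and Vhl lower, in wt, MK2-/- and MK2/3-/- BMDM alike. That is 5 of 32 genes higher, where 5.85% of all genes were higher in all 3 genotypes, and 2 of 32 lower, where 8.07% of all genes were lower. Without the 4 cultures highest in fibroblast markers, 4 were higher in all genotypes, without Eno2, and 3 lower, with Vegfa added. That fit held 2 wt arrays per treatment and 2 MK2-/- medium arrays, and the share of all genes called in it is not given here. In wt BMDM, 5 genes rose and 2 fell, with a background of 7.57% and 10.3% of all genes. In MK2-/- BMDM, 6 rose and 4 fell, with a background of 8.04% and 11.5%. In MK2/3-/- BMDM, 8 rose and 3 fell, with a background of 11.2% and 14.5%. The median log2 change of the 32 genes was -0.06, -0.03 and -0.03 in wt, MK2-/- and MK2/3-/- BMDM, compared to -0.03, -0.04 and -0.05 over all genes. When arrays were scaled to their 75th percentile instead, the medians were 0.19, 0.24 and 0.25 for the 32 genes and 0.11, 0.16 and 0.04 over all genes.

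**Figure D1:**
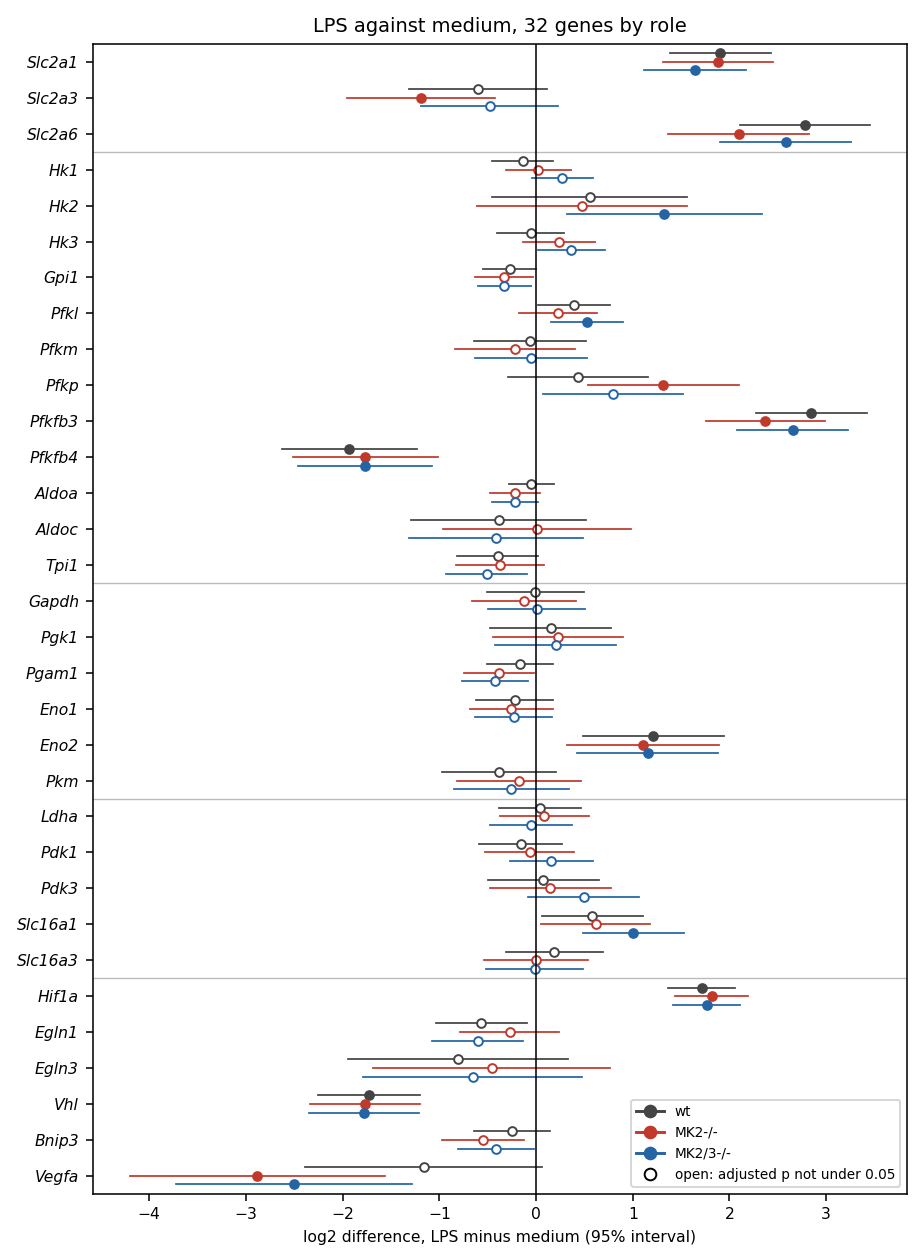
LPS-induced change of the 32 genes by role. The x axis is the log2 difference of LPS minus medium with its 95% interval from limma, in wt, MK2-/- and MK2/3-/- BMDM, and open circles mark an adjusted p that was not under 0.05. Pfkfb3, Slc2a6, Slc2a1 and Hif1a lie above 1.5 in each genotype, while the circles of Ldha and Gapdh lie near 0.

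Promoters of the 7 genes called in all 3 genotypes are shown with that of Ldha, a textbook HIF-1 target that did not pass the test, to set the HIF core of both kinds of gene side by side. The windows hold the 250 bases before the transcription start in RefSeq (GRCm38.p6), written 5′ to 3′ along the gene, and capitals mark the HIF core, ACGTG or GCGTG, on either strand. On the other strand the core reads CACGT or CACGC, and the palindrome CACGTG, an E-box, counts at 2 positions.

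Slc2a1 (chr4:119108495-119108744, plus strand): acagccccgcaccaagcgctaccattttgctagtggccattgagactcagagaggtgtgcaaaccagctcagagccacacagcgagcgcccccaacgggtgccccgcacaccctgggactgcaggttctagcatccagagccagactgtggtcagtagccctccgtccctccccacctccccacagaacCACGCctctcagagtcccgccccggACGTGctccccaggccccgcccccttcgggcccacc

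Slc2a6 (chr2:27027999-27028248, minus strand): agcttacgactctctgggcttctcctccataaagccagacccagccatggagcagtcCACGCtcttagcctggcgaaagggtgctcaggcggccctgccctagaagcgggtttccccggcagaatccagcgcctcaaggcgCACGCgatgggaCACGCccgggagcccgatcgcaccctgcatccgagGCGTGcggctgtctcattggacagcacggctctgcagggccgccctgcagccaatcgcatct

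Pfkfb3 (chr2:11502091-11502340, minus strand): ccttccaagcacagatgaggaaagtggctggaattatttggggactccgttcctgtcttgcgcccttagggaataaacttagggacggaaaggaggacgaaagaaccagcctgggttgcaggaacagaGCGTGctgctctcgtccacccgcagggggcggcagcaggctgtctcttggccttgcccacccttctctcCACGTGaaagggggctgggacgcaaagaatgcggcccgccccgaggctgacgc

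Hif1a (chr12:73907617-73907866, plus strand): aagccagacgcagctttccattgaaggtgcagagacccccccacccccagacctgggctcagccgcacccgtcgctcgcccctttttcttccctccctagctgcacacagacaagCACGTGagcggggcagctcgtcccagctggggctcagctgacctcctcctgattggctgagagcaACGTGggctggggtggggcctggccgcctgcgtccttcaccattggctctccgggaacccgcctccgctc

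Eno2 (chr6:124769674-124769923, minus strand): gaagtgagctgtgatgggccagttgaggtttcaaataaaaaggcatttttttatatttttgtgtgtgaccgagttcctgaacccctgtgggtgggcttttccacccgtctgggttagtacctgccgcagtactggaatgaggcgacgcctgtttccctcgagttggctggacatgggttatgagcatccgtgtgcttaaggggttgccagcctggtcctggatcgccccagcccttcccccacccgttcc

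Ldha (chr7:46845554-46845803, plus strand): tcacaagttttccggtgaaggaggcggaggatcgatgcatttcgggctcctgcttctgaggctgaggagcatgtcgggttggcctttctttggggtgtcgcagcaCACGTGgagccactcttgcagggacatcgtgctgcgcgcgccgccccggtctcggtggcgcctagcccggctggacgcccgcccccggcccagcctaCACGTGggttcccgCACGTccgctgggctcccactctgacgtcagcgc

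Pfkfb4 (chr9:108991652-108991901, plus strand): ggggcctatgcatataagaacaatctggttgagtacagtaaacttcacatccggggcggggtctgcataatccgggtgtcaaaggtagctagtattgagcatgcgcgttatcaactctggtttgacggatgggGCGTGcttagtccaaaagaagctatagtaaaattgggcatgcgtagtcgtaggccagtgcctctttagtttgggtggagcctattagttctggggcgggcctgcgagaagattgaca

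Vhl (chr6:113623744-113623993, plus strand): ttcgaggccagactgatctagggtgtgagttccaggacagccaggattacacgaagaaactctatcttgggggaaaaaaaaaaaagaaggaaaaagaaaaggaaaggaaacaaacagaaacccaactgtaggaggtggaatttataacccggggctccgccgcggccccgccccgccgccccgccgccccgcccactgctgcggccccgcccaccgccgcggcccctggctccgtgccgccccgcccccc

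The core was found 2 times before Slc2a1, 4 times before Slc2a6, 3 times before the Pfkfb3 start shown, 3 times before Hif1a, 5 times before the Ldha start shown and 1 time before Pfkfb4, and not before Eno2 and Vhl. The other starts of Pfkfb3 and Ldha in the table had 1 core each. Of the 31 genes of the set with a RefSeq window, 27 (87.1%) held it in at least 1 window, compared to 41.5% of 27025 genes. Per window it was found in 35 of 45 (77.8%), compared to 38.6% of 32851 windows. The member windows were also richer in G and C, at a median of 61.6% compared to 52.4%, and held a median of 14 CG dinucleotides compared to 6, and both versions of the core contain a CG. The 4 genes without it were Eno2, Vhl, Gpi1 and Tpi1, and Slc2a3 had no window in this table. A match is a run of letters and no measured binding, and genes with and without a change after LPS both held it. The kappaB consensus motif was found in 3 of 31 genes (9.68%), namely Pfkm, Pgk1 and Vegfa, compared to 8.23% of all genes.

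Glucose enters the cell through the transporters of the Slc2a family, and LPS raised 2 of the 3 measured. Slc2a1 encodes GLUT1, the main transporter of many cell types and a known HIF-1 target. Its level in medium was 12.24, 11.24, 11.41 and 11.74 on the wt arrays, 10.82, 11.29 and 11.95 on the MK2-/- arrays and 11.18, 12.16, 11.65 and 11.93 on the MK2/3-/- arrays. After LPS it was 13.32, 13.56, 13.76 and 13.60 in wt, 12.96, 13.43, 13.19 and 13.35 in MK2-/- and 13.16, 13.28, 13.73 and 13.32 in MK2/3-/- cells. Every LPS array was above every medium array of its genotype. The log2 change was 1.91 (SE 0.25, 3.75-fold, adjusted p = 1.48e-05) in wt, 1.88 (SE 0.27, adjusted p = 3.79e-05) in MK2-/- and 1.64 (SE 0.25, adjusted p = 5.20e-05) in MK2/3-/- cells.

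Slc2a6 encodes GLUT6, a transporter found in spleen and leukocytes. In medium its level was 13.54, 13.95, 13.08 and 13.19 in wt, 15.11, 14.52 and 13.58 in MK2-/- and 14.60, 14.20, 13.51 and 13.78 in MK2/3-/- cells. After LPS the arrays read 16.24, 16.75, 16.14 and 15.73 in wt, 16.69, 16.92, 16.34 and 16.03 in MK2-/- and 16.85, 16.96, 16.41 and 16.19 in MK2/3-/- cells. Medium and LPS arrays did not overlap in any genotype. The change was 2.78 (SE 0.32, 6.86-fold, adjusted p = 3.17e-06) in wt, 2.09 (SE 0.35, 4.27-fold, adjusted p = 1.83e-04) in MK2-/- and 2.58 (SE 0.32, 5.98-fold, adjusted p = 5.23e-06) in MK2/3-/- cells. Slc2a3, which encodes the high-affinity transporter GLUT3, differed in direction from the other two. It was lower after LPS in 11 of 11 cultures, with log2 changes of -0.60 in wt (adjusted p = 0.281), -1.19 in MK2-/- (0.0267) and -0.48 in MK2/3-/- cells (0.343). In this main fit, which held no culture term, it was called in MK2-/- BMDM alone. With the culture letter, which recurs in the 3 genotypes, as a term of the fit, it was called lower in wt BMDM too. In MK2-/- BMDM the medium arrays read 9.39, 9.20 and 9.42 and the LPS arrays 8.24, 7.44, 8.41 and 8.52, without overlap. The difference of the MK2-/- response from the wt response was -0.59 (95% interval -1.64 to 0.45, adjusted p = 1.00).

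**Figure D2:**
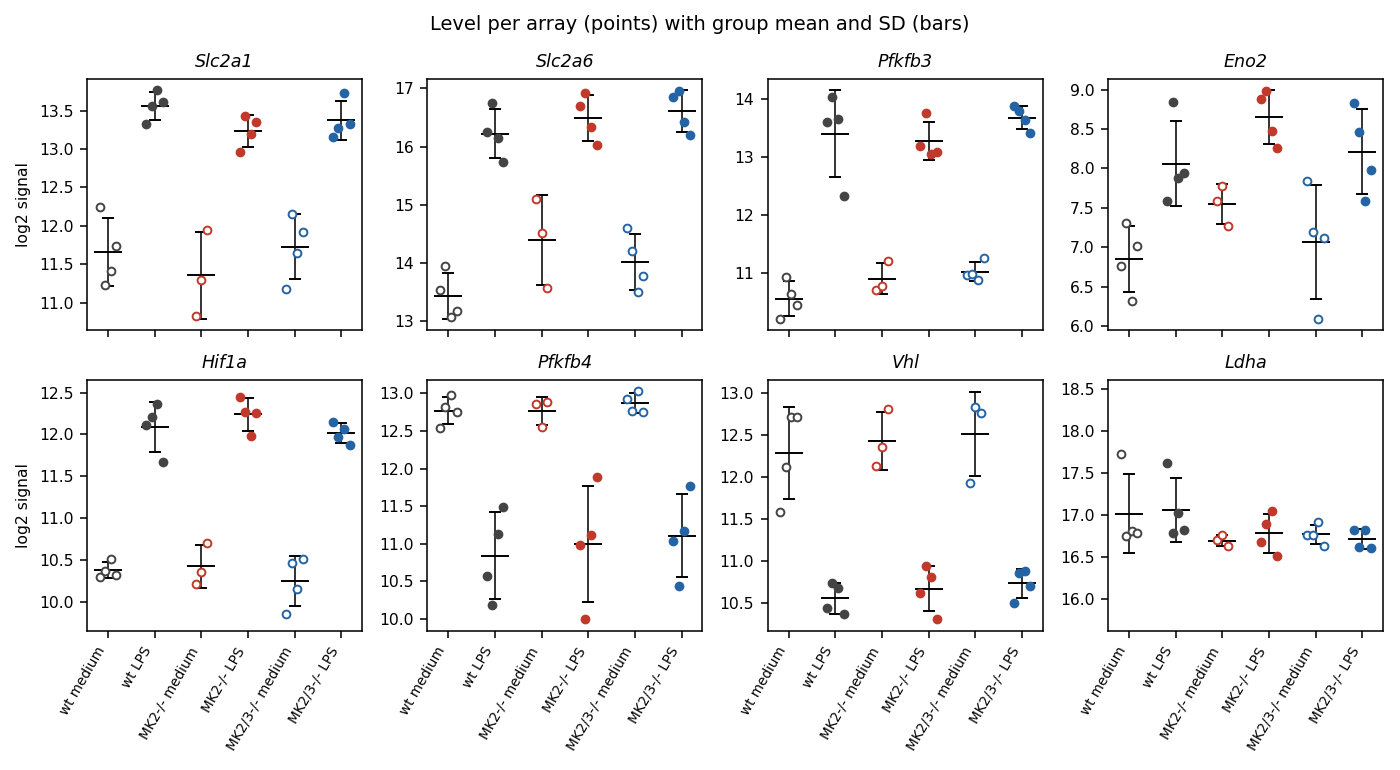
Level of 8 genes on each array, with 1 panel per gene. The x axis gives the 6 groups and the y axis the quantile-normalised log2 intensity, on a separate range in each panel. Circles are arrays (open, medium; filled, LPS) and bars are the group mean and SD. Slc2a1, Slc2a6, Pfkfb3 and Hif1a lie higher and Pfkfb4 and Vhl lower after LPS in all 3 genotypes with no overlap, while the Ldha groups overlap. Eno2 is also higher on average, with overlap between medium and LPS in MK2/3-/- cells. The Vhl panel has 3 arrays for MK2/3-/- medium, where 1 spot was flagged as an outlier and left out.

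Of the 12 genes of the upper part of glycolysis, which spends ATP to prepare the sugar for splitting, Pfkfb3 and Pfkfb4 showed opposite changes. Both belong to the family of isoenzymes that sets fructose 2,6-bisphosphate. Pfkfb3 makes this activator of phosphofructokinase and is known as the inducible isoenzyme of the family. Its level in medium was 10.21, 10.92, 10.64 and 10.44 in wt, 10.71, 10.78 and 11.20 in MK2-/- and 10.96, 10.98, 10.87 and 11.26 in MK2/3-/- cells. After LPS it was 13.59, 14.03, 13.65 and 12.32 in wt, 13.18, 13.75, 13.05 and 13.08 in MK2-/- and 13.87, 13.79, 13.62 and 13.41 in MK2/3-/- cells. The lowest of the 12 LPS arrays, wt replicate 4, still lay above the highest medium array. Pfkfb3 rose 7.20-fold in wt (log2 2.85, SE 0.27, adjusted p = 2.79e-07), 5.17-fold in MK2-/- (adjusted p = 7.21e-06) and 6.30-fold in MK2/3-/- cells (adjusted p = 4.53e-07). A second Pfkfb3 probe gave 3.09, 2.19 and 3.20 on the log2 scale.

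Pfkfb4 encodes another isoenzyme of this family. In medium it read 12.54, 12.82, 12.97 and 12.75 in wt, 12.86, 12.55 and 12.88 in MK2-/- and 12.93, 12.76, 13.03 and 12.76 in MK2/3-/- cells. After LPS it read 10.57, 10.18, 11.12 and 11.49 in wt, 10.99, 9.99, 11.12 and 11.88 in MK2-/- and 11.04, 10.44, 11.17 and 11.77 in MK2/3-/- cells. All LPS arrays were below all medium arrays of their genotype. Pfkfb4 fell 3.81-fold in wt (log2 -1.93, SE 0.33, adjusted p = 2.81e-04), 3.41-fold in MK2-/- (adjusted p = 0.00123) and 3.40-fold in MK2/3-/- cells (adjusted p = 4.50e-04). A second, dim probe of this gene gave -0.44 in MK2-/- BMDM, and with the mean of both probes the change there was -1.10 (adjusted p = 0.153).

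The remaining upper genes passed the test in single genotypes or not at all. Hk2, the regulated hexokinase that phosphorylates incoming glucose, was called in MK2/3-/- BMDM only. There it read 10.27, 11.56, 11.49 and 11.40 in medium and 12.81, 13.23, 12.54 and 11.46 after LPS, which overlapped, with a change of 1.33 (SE 0.48, adjusted p = 0.0485). Its change was 0.55 in wt and 0.48 in MK2-/- BMDM, and the MK2/3-/- call was kept in 7 of 23 fits that each left out 1 array. Pfkp, the platelet-type phosphofructokinase, read 9.58, 11.47 and 11.36 in medium and 12.06, 12.31, 11.89 and 12.23 after LPS in MK2-/- BMDM, a change of 1.32 (adjusted p = 0.0161). Its second probe changed by 0.34 there, so that the probes disagreed, and without MK2-/- medium replicate 1 the change was 0.70 (adjusted p = 0.146). In wt and MK2/3-/- BMDM the Pfkp change was 0.44 and 0.79. Pfkl, the liver-type phosphofructokinase, was higher in 11 of 11 cultures and was called in MK2/3-/- BMDM (0.52, adjusted p = 0.0353), with changes of 0.39 in wt and 0.22 in MK2-/- BMDM. After normexp background correction the MK2/3-/- value was 0.39 (adjusted p = 0.117). The hexokinases Hk1 and Hk3, the isomerase Gpi1 and the muscle-type phosphofructokinase Pfkm were called in no genotype in the main fit. Nor were the aldolases Aldoa and Aldoc and the triose phosphate isomerase Tpi1. With culture as a block Hk3, Gpi1 and Tpi1 were called in MK2/3-/- BMDM (adjusted p = 0.0456, 0.0350 and 0.0255). Tpi1 was called there with the culture letter as a term of the fit too. Among these 7 genes the log2 change lay between -0.51 (Tpi1 in MK2/3-/- BMDM) and 0.37 (Hk3 in MK2/3-/- BMDM).

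In the lower part of glycolysis, which yields ATP and pyruvate, Eno2 was the only gene of 6 that passed the test. Eno2 encodes gamma enolase, known as the neuronal isoform. It read 6.76, 7.31, 6.31 and 7.02 in medium and 7.58, 8.84, 7.87 and 7.94 after LPS in wt BMDM. In MK2-/- BMDM it read 7.59, 7.78 and 7.27 in medium and 8.89, 8.98, 8.48 and 8.26 after LPS, and in MK2/3-/- BMDM 7.84, 7.20, 6.09 and 7.11 in medium and 8.83, 8.46, 7.59 and 7.97 after LPS. The groups overlapped in MK2/3-/- BMDM and not in the other two genotypes, and within each of 11 cultures the LPS array was the higher. Eno2 rose 2.32-fold in wt (adjusted p = 0.0183), 2.15-fold in MK2-/- (adjusted p = 0.0444) and 2.22-fold in MK2/3-/- cells (adjusted p = 0.0179). These calls were kept in 21, 11 and 20 of 23 fits that each left out 1 array.

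The other 5 lower genes were called in no genotype in the main fit. Pgam1 was called in MK2/3-/- BMDM when culture was a block (adjusted p = 0.0207), and also with the culture letter as a term of the fit. Gapdh, Pgk1, Pgam1, Eno1 and Pkm encode the enzymes from glyceraldehyde phosphate to pyruvate. In wt BMDM the log2 change was -0.01 (95% interval -0.51 to 0.49) for Gapdh, 0.15 (-0.47 to 0.78) for Pgk1, -0.22 (-0.62 to 0.18) for Eno1 and -0.38 (-0.97 to 0.21) for Pkm. Several of these genes, as well as Ldha, Tpi1 and Aldoa, have near-identical copies in the mouse genome, and the probe sequences were not used here, so that signal from copies cannot be told apart. The 7 Gapdh probes gave changes between -0.46 and -0.01 in wt BMDM.

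Lactate handling showed 1 call. Slc16a1 encodes the lactate transporter MCT1 and was higher after LPS in 11 of 11 cultures. The MK2/3-/- arrays read 7.81, 6.48, 7.08 and 6.88 in medium and 8.34, 8.10, 7.92 and 7.91 after LPS, without overlap, a change of 1.01 (SE 0.25, 2.01-fold, adjusted p = 0.00464). In wt and MK2-/- BMDM the change was 0.58 (adjusted p = 0.126) and 0.62 (0.124), with 0.0468 and 0.0440 when culture was a block. Ldha, the lactate dehydrogenase subunit that favours lactate formation, read 17.72, 16.74, 16.81 and 16.78 in medium and 17.62, 16.78, 17.02 and 16.82 after LPS in wt BMDM. Its first medium array was the highest of these 8, and the change was 0.04 (95% interval -0.38 to 0.47) in wt, 0.08 (-0.38 to 0.55) in MK2-/- and -0.05 (-0.48 to 0.38) in MK2/3-/- cells. None of the 3 intervals reached 1 log2 unit, a 2-fold change. The kinases Pdk1 and Pdk3, which keep pyruvate out of the mitochondrial cycle, and the lactate exporter Slc16a3 (MCT4) changed by between -0.16 (Pdk1 in wt) and 0.49 (Pdk3 in MK2/3-/- BMDM) and were not called.

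Among the HIF-1 pathway genes, the gene of the alpha subunit rose and that of its ubiquitin ligase subunit fell in all 3 genotypes. Hif1a read 10.30, 10.37, 10.52 and 10.33 in medium in wt, 10.21, 10.36 and 10.70 in MK2-/- and 9.86, 10.47, 10.16 and 10.51 in MK2/3-/- cells. After LPS it read 12.11, 12.21, 12.37 and 11.67 in wt, 12.45, 12.27, 11.98 and 12.26 in MK2-/- and 12.15, 11.97, 12.06 and 11.87 in MK2/3-/- cells. Every one of the 12 LPS arrays was above every one of the 11 medium arrays. Hif1a rose 3.28-fold in wt (log2 1.71, SE 0.17, adjusted p = 3.23e-07), 3.52-fold in MK2-/- (log2 1.81, SE 0.18, adjusted p = 4.05e-07) and 3.40-fold in MK2/3-/- cells (log2 1.76, SE 0.17, adjusted p = 1.41e-07). The protein, which is controlled mainly by its degradation, was not measured here.

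Vhl encodes the part of the ubiquitin ligase that recognises the hydroxylated alpha subunit. In medium it read 11.58, 12.12, 12.72 and 12.72 in wt, 12.13, 12.36 and 12.81 in MK2-/- and 11.93, 12.84 and 12.77 in MK2/3-/- cells, where the spot of medium replicate 2 was flagged and left out of the fit. After LPS it read 10.43, 10.74, 10.68 and 10.36 in wt, 10.62, 10.94, 10.81 and 10.31 in MK2-/- and 10.50, 10.86, 10.88 and 10.70 in MK2/3-/- cells. The 12 LPS arrays all lay below the 10 medium arrays. Vhl fell 3.32-fold in wt (log2 -1.73, SE 0.25, adjusted p = 6.03e-05), 3.40-fold in MK2-/- (adjusted p = 9.89e-05) and 3.43-fold in MK2/3-/- cells (adjusted p = 6.47e-05).

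The hydroxylase genes and Bnip3, a mitophagy receptor gene and known HIF-1 target, were called in no genotype in the main fit. With culture as a block, Egln1 was called lower in MK2/3-/- (adjusted p = 0.0252) and Bnip3 in both knockouts. With the culture letter as a term of the fit, Egln1 was called lower in MK2/3-/- and Bnip3 in MK2-/- BMDM. Egln1 changed by -0.56 in wt, -0.27 in MK2-/- and -0.60 in MK2/3-/- cells, and Egln3 by -0.80, -0.46 and -0.66. A second Egln3 probe gave 0.33 in wt BMDM, opposite in sign to the first. Bnip3 was lower in 11 of 11 cultures, with changes of -0.25, -0.55 (adjusted p = 0.0639, or 0.0216 with culture as a block) and -0.41 in the order wt, MK2-/- and MK2/3-/- BMDM.

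Vegfa, which encodes the main growth factor of blood vessels, fell in both knockouts and varied widely in wt BMDM. In medium it read 11.55, 11.23, 10.37 and 10.41 in wt, 11.52, 11.34 and 11.50 in MK2-/- and 11.40, 10.80, 10.45 and 11.46 in MK2/3-/- cells. After LPS it read 11.36, 8.37, 9.10 and 10.08 in wt, 8.60, 7.71, 8.18 and 9.80 in MK2-/- and 8.07, 7.79, 8.13 and 10.12 in MK2/3-/- cells. The wt groups overlapped, because wt LPS replicate 1 was almost as high as its medium partner, while the groups of each knockout did not. The change was -1.16 (SE 0.58, adjusted p = 0.208) in wt, -2.88 (SE 0.63, 0.00239) in MK2-/- and -2.50 (SE 0.58, 0.00299) in MK2/3-/- cells. Without wt LPS replicate 1 the wt change was -1.71 (adjusted p = 0.0419). A second Vegfa probe gave -0.30, -1.92 and -1.46. The test of the difference between responses gave -1.72 (95% interval -3.52 to 0.08, adjusted p = 1.00) for MK2-/- minus wt and -1.34 (-3.07 to 0.39, adjusted p = 1.00) for MK2/3-/- minus wt.

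The Vegfa change moved with the fibroblast marker level of the culture. In the 4 wt cultures the Vegfa change from medium to LPS was -0.20, -2.85, -1.27 and -0.33, at summed fibroblast levels in medium of 16.7, 12.1, 14.3 and 15.1. In the 3 MK2-/- cultures with both arrays it was -2.92, -3.63 and -1.70, at levels of 11.2, 10.3 and 15.1. In the 4 MK2/3-/- cultures it was -3.33, -3.01, -2.33 and -1.35, at levels of 9.07, 10.9, 13.3 and 15.8. The smallest drop of each genotype thus came from the culture with the highest fibroblast level. In both knockouts this was the culture with the letter e, so that marker level and culture letter cannot be told apart there. Pfkfb3, Pfkfb4 and Hif1a also changed least in culture e in each genotype, so that a small change there was not particular to Vegfa. Without the 4 cultures at or above 15, which left 15 arrays, the wt change was -2.06 (adjusted p = 0.00609), from 2 wt arrays per treatment. That cut removed the wt cultures with the smallest Vegfa drops (-0.20 and -0.33), so that a larger wt drop followed from the cut. With the marker level as a covariate the wt change was -1.13 (adjusted p = 0.131). Medium and LPS arrays of a wt culture had close marker levels, so that this term could hardly move the LPS change. Both fits were added after the data were seen, and the part of fibroblasts in the Vegfa values was not tested.

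**Figure D3:**
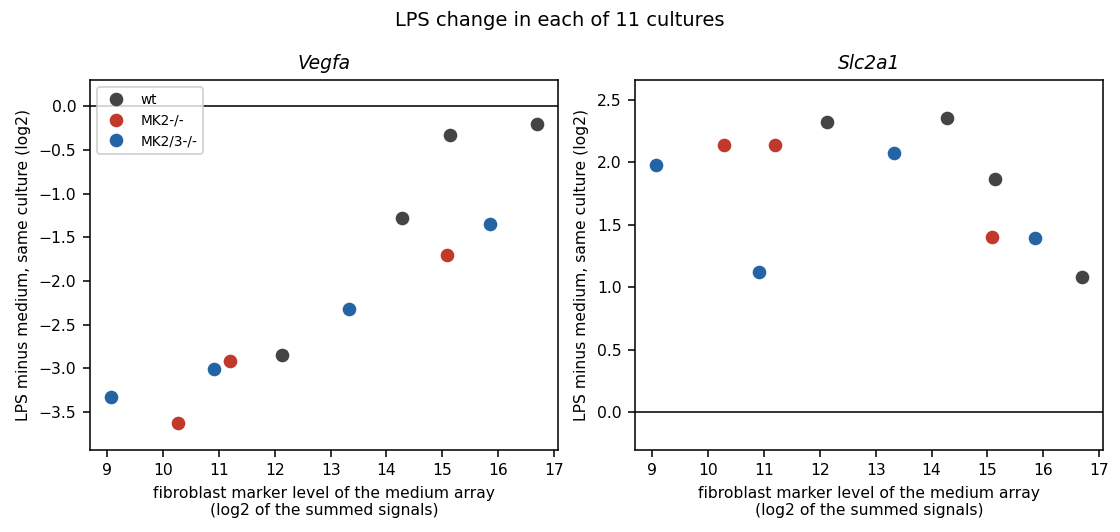
Change of Vegfa and Slc2a1 from medium to LPS within each of the 11 cultures with both arrays (y axis, log2 units), plotted against the fibroblast marker level of the medium array (x axis, log2 of the summed signals). Points are cultures, coloured by genotype. Slc2a1 lies above 0 in every culture, and the Vegfa change of the wt culture with the highest marker level (16.7) was -0.20.

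Medium and LPS arrays of a genotype were paired by culture letter and age, apart from MK2-/- LPS replicate 3, which had no medium partner. With culture as a block the fit called more genes. In wt BMDM it called 6 genes higher and 3 lower, with a background of 9.64% and 13.8% of all genes. In MK2-/- BMDM it called 7 higher and 5 lower, with a background of 10.4% and 14.7%. In MK2/3-/- BMDM it called 18 genes, compared to 11 without the block, with 10 higher and 8 lower and a background of 14% and 18.1%. The 7 added calls in MK2/3-/- BMDM were Hk3 and Pfkp, which were higher, and Gpi1, Tpi1, Pgam1, Egln1 and Bnip3, which were lower. Their log2 changes were 0.37 (adjusted p = 0.0456 with the block), 0.79 (0.0489), -0.33 (0.0350), -0.51 (0.0255), -0.42 (0.0207), -0.60 (0.0252) and -0.41 (0.0465). Under 75th percentile scaling without the block, Gpi1 and Pgam1 turned to 0.03 and 0.01, and Tpi1 was -0.10, so that the direction for Gpi1 and Pgam1 depended on the scaling. Slc16a1 joined the genes called higher in all 3 genotypes, which made 6, and the 2 called lower in all remained Pfkfb4 and Vhl.

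The comparison of genotypes asked whether loss of MK2, or of MK2 and MK3, changed these genes. No gene of the set passed the adjustment by limma in any of the 6 genotype comparisons or the 3 comparisons of LPS responses, although Hk1 did under 2 alternatives. The background of calls was as low in most of them, at 0.0115% of all genes for MK2-/- against wt, 0.0769% for MK2/3-/- against wt and 0.0461% for MK2/3-/- against MK2-/- BMDM in medium. The shares after LPS were 0.0308%, 1.8% and 0.192% in the same order. For the differences of the LPS response it was 0.00384%, 0.0154% and 0%. At an unadjusted p under 0.05, 1 of 32 genes (3.12%) passed in each medium comparison, where 3.33%, 4.7% and 3.48% of all genes did in the same order. After LPS 6, 4 and 2 genes (18.8%, 12.5% and 6.25%) passed, compared to 7.49%, 13.8% and 7.77% of all genes. In the 3 response comparisons 0 passed, compared to 1.89%, 4.66% and 2.83% of all genes. The methods' t-test called 0 of the 32 genes in each of the 6 genotype comparisons after adjustment, which the study's methods do not name. At an unadjusted p under 0.05 this t-test passed 0, 1 and 2 genes in medium, compared to 1373, 1326 and 1063 of all genes. After LPS it passed 4, 2 and 2, compared to 1377, 2499 and 1702 of all genes.

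Hk1, the hexokinase that most tissues use, came closest to a genotype call. After LPS it read 13.11, 13.29, 12.85 and 13.19 in wt, 13.42, 13.45, 13.13 and 13.26 in MK2-/- and 13.62, 13.73, 13.45 and 13.53 in MK2/3-/- cells, so that the MK2/3-/- arrays lay above all wt arrays. The difference of MK2/3-/- from wt was 0.47 (95% interval 0.16 to 0.79, adjusted p = 0.128). It passed the test under 2 alternatives, with 75th percentile scaling (adjusted p = 0.0483, with a background of 1.86% of all genes called) and with the culture letter, which recurs in the 3 genotypes, as a term of the fit (0.0246, with a background of 3.96%). The latter was added after the data were seen. Within the 4 letters Hk1 was higher in MK2/3-/- than in wt BMDM in 4 of 4 after LPS, by 0.34 to 0.60. Hk2 was higher in 4 of 4 too, by 0.57 to 1.23, and so were Slc2a6, Pfkp, Pfkfb4 and Vhl. Slc2a1, Aldoa, Pgam1, Eno1, Ldha and Bnip3 were lower in 4 of 4, so that such agreement was not particular to the hexokinases.

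The intervals give the size of difference that these arrays could not resolve. The response of Hif1a differed from wt by 0.10 (-0.41 to 0.61) in MK2-/- and by 0.05 (-0.44 to 0.54) in MK2/3-/- cells, where the brackets hold the 95% interval. The Slc2a1 response differed by -0.03 (-0.80 to 0.74) and -0.26 (-1.01 to 0.48), and the Vhl response by -0.03 (-0.81 to 0.74) and -0.05 (-0.83 to 0.73). Of these 6 intervals, that of Slc2a1 in MK2/3-/- BMDM reached beyond 1 log2 unit and the others did not. The Pfkfb3 response differed by -0.48 (-1.32 to 0.36) and -0.19, and the Slc2a6 response by -0.68 (-1.68 to 0.31) and -0.20 (-1.15 to 0.76). For Pfkfb3, Slc2a6 and Vegfa, response differences of 1 log2 unit were thus within the interval in both knockouts.

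Genotype differences with an unadjusted limma p under 0.05 are listed next. Their share of the 32 genes was below that of all genes in each comparison but 1. The exception was MK2-/- against wt after LPS, at 18.8% compared to 7.49%. Slc2a6 in medium was 0.96 higher in MK2-/- than in wt BMDM (SE 0.35, adjusted p = 1.00). Eno1 in medium differed by -0.47 in MK2/3-/- from wt BMDM, and Pfkp in medium by 0.81 in MK2/3-/- from MK2-/- BMDM. After LPS, MK2-/- minus wt was 0.50 for Hk3, -0.46 for Pfkl, -0.31 for Aldoa, -0.37 for Pgam1, -0.44 for Eno1 and -0.49 for Bnip3. MK2/3-/- minus wt after LPS was 0.47 for Hk1, 0.50 for Hk3, -0.35 for Pgam1 and -0.48 for Eno1. MK2/3-/- minus MK2-/- after LPS was 0.50 for Pfkl and 0.47 for Pdk1. Vegfa after LPS, not among these, was -1.15 and -1.20 in MK2-/- and MK2/3-/- against wt BMDM, with adjusted p-values of 0.674 and 0.376.

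**Figure D4:**
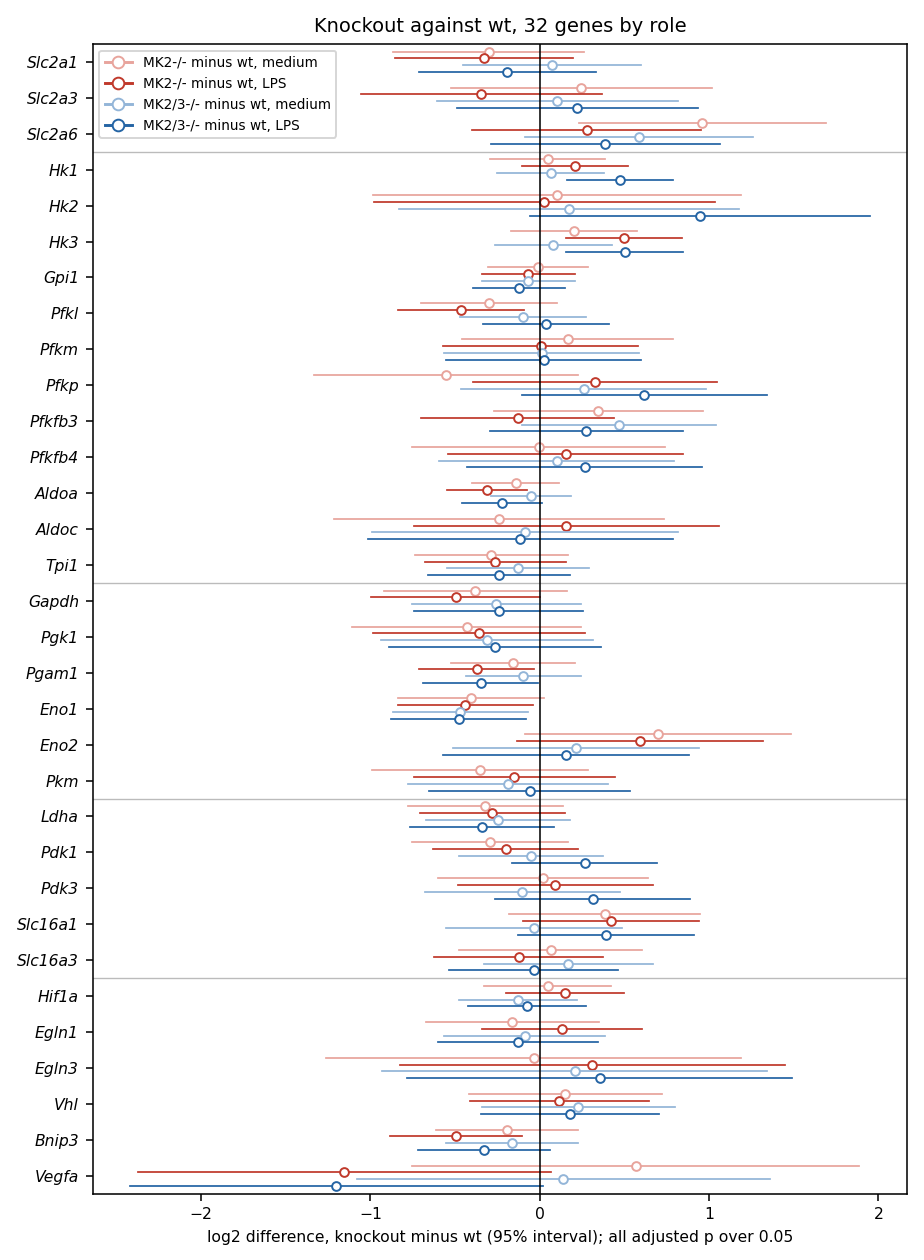
Difference of each knockout from wt for the 32 genes by role, in medium and after LPS. The x axis is the log2 difference (circles) with its 95% interval from limma (lines). No adjusted p was under 0.05, and most intervals cross 0. The estimates farthest from 0 are those of Vegfa after LPS, at -1.15 and -1.20.

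Other genes of the same routes were counted for context, in lists chosen with earlier results of these data known. Of 24 other HIF-1 targets, 5 rose and 3 fell in wt, 6 rose and 5 fell in MK2-/-, and 6 rose and 4 fell in MK2/3-/- BMDM. The shares of all genes were 7.57%, 8.04% and 11.2% higher and 10.3%, 11.5% and 14.5% lower in the order wt, MK2-/- and MK2/3-/-, and they hold for each of the list counts that follow. Edn1 (the vasoconstrictor endothelin) rose by 6.40, 8.06 and 7.70 in the same order, and its medium signal was above background on 3 of 4, 1 of 3 and 2 of 4 arrays. Adm (the vasodilator adrenomedullin) rose by 2.98, 4.83 and 4.37, from a medium signal above background on 4 of 4, 2 of 3 and 3 of 4 arrays. Nos2 (inducible nitric oxide synthase) rose by 2.76, 3.45 and 3.92. Cxcr4 (a chemokine receptor) changed by -3.46, -4.69 and -4.01, Ankrd37 by -1.90, -2.42 and -2.71, and the histone demethylase Kdm3a by -1.39, -1.44 and -1.13, all lower and all called. Of 13 other HIF pathway genes, Cited2, which competes with HIF-1 for the coactivator p300, rose by 3.25, 3.28 and 3.71, and it was the only gene of that list called higher in each genotype, whereas under 75th percentile scaling Eloc was also called higher in each. The counts of that list called lower were 1, 2 and 2.

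Of 25 other glycolytic genes and regulators, 1 rose in each genotype (4% of the list) and 4, 4 and 5 fell (16%, 16% and 20%). The riser was Gpd2, the mitochondrial glycerol phosphate dehydrogenase, at 1.23, 1.16 and 1.32. Txnip, an arrestin-like protein known to restrain glucose uptake, changed by -3.26, -3.58 and -2.13, and Pfkfb2, another isoenzyme of the Pfkfb family, by -2.03, -2.30 and -1.97, both lower in every genotype. After LPS the Pfkfb2 signal was above background on 4, 3 and 2 arrays. Of 17 genes of the pentose phosphate route and glycogen, 0 rose and 5, 3 and 3 fell, among them the sedoheptulose kinase gene Shpk and the transketolase gene Tkt (-0.49, -0.53 and -0.64). Of 29 genes of pyruvate oxidation and the TCA cycle, 1 rose in each genotype and 4, 3 and 9 fell. Under 75th percentile scaling the counts that fell were 2, 1 and 1 for the pentose phosphate and glycogen list and 1, 1 and 1 for the TCA cycle list, so that most of those small falls depended on the scaling. In the genotype comparisons, 1 gene of these 5 lists was called, Pgam2 in MK2/3-/- against wt BMDM after LPS, at -1.08 (adjusted p = 0.0313).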

How the data were processed

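RNA of 23 BMDM samples was hybridised to single-colour Agilent arrays with 62976 spots. Per the file headers, the authors' scanner files hold spot intensity after background subtraction by Agilent Feature Extraction 11.0, and the deposited value table holds log2 values relative to each probe's median over the arrays (r = 1.00 with the processed signals). Spots flagged as outliers were left out (159 values), control spots were removed, spots of a probe were averaged, and log2 signals were quantile normalised as in the study's methods. Probes with an NCBI accession (32885, of which 27509 were named through RefSeq) gave 26014 genes, each by its brightest probe, which for the 32 genes meant 53 probes, 19 genes with 1 and 13 with several. One limma fit (limma 3.58.1, R 4.3.3; figures with matplotlib 3.10.9) of the 6 groups gave differences, with Benjamini-Hochberg adjustment over all genes. The fit was tested on simulated data. Named were all 32 genes, the targeted genes, and listed genes past the adjustment. The genes, lists and tests were chosen with earlier results of these data known. Medium and LPS arrays were paired by culture letter and age, and deviations of 11 pairs correlated at 0.0893 to 0.568 over all genes (0.392 to 0.783 over detected genes). The number of arrays limits the precision. P-values of the main fit measure the spread between the arrays of a group, each from another culture, and do not use the pairing. The labels do not state outright that the cultures came from separate mice. Arrays of the later time point were not analysed here. On 2 arrays, MK2-/- LPS replicate 1 and MK2/3-/- medium replicate 2, the scanner's gradient correction had no fit.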

Additional observations from a re-analysis of the deposited data

Results flagged for a closer look

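In groups of 4 arrays, the gap between the most distant array and its nearest neighbour was divided by the range of the group. Of 159 gene and group pairs, 13 exceeded the 95% limit for chance, which passes about 1 in 20 groups. No explanation was tested for any of them.

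Of these, 3 involved wt medium replicate 1, which was the highest array for Ldha (17.72, the next at 16.81, ratio 0.930), Pgam1 (16.07 and 15.46, ratio 0.840) and Eno1 (17.21 and 16.54, ratio 0.836). This culture also had the highest fibroblast marker level (16.7). MK2-/- LPS replicate 2 was the highest array for Hk2 (12.60 and 11.37, ratio 0.863) and the lowest for Gpi1 (16.16 and 16.43, ratio 0.911) and Pfkm (10.05 and 10.70, ratio 0.893). Both MK2/3-/- arrays of the third culture were the highest for Pdk1, with 9.80 and 9.28 in medium (ratio 0.916) and 10.23 and 9.38 after LPS (ratio 0.883).

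In MK2/3-/- BMDM after LPS, replicate 3 was the lowest array for Egln1 (6.53 and 7.42, ratio 0.894), replicate 2 the lowest for Pgam1 (14.75 and 15.12, ratio 0.865), and replicate 4 the highest for Vegfa (10.12 and 8.13, ratio 0.854). In medium, MK2/3-/- replicate 1 was the lowest array for Hk2 (10.27 and 11.40, ratio 0.878). For Slc16a1 after LPS, wt replicate 3 was the highest (8.20 and 7.57, ratio 0.830).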

How the results depend on the processing

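The 28 calls after LPS were refitted under 35 alternatives each, 980 in all, of which 916 kept the call, 64 lost it and 0 reversed. With culture as a replicate block the MK2/3-/- count was 18 instead of 11, and the block changed no genotype or response call. Scaling to the 75th percentile called 1 gene, Hk1, in MK2/3-/- against wt BMDM after LPS. So did the culture letter (a, b, c or e), which recurs in the 3 genotypes, as an additive replicate block chosen after seeing the data (1 gene, Hk1). Deviations of arrays with the same letter and treatment but different genotype correlated at a median of 0.387 (-0.0995 to 0.826, 22 pairs, 17 over 0.1) and those of other letters at -0.112 (66 pairs), which is a hint from the data and not from the labels. That block kept all 28 calls, and called 8, 11 and 14 of the 32 genes after LPS in wt, MK2-/- and MK2/3-/- BMDM. The shares of all genes called with it were 23.4%, 24.6% and 31% in the same order. That scaling moved the median of all genes by over 0.1 in several comparisons, to 0.11 and 0.16 after LPS in wt and MK2-/- BMDM, and cost Eno2 its MK2-/- call (adjusted p = 0.0582). After normexp correction 7 genes were higher and 6 lower in MK2/3-/- BMDM, compared to 8 and 3. The filter on dim probes gave 8 and 6, and the fibroblast level as a covariate gave 8 and 8. The share of all genes called under these settings, and under those of the ranges that follow, is not given here. Such counts therefore cannot be read as a result about the set. Over all alternatives other than the block the counts were 6 to 8 in wt, 7 to 11 in MK2-/- and 8 to 16 in MK2/3-/- BMDM. Leaving out 1 array at a time gave 6 to 8, 7 to 11 and 8 to 14, and 0 to 0 for all genotype and response comparisons. Slc2a1, Slc2a6, Pfkfb3, Pfkfb4, Hif1a and Vhl, and Vegfa in both knockouts, kept their calls in those fits. Eno2 was not called in wt BMDM without wt medium replicate 3 or wt LPS replicate 2, and in MK2/3-/- BMDM without MK2/3-/- medium replicate 3 or LPS replicate 1 or 2. The MK2-/- call of Eno2 was lost in 12 fits, among them all without 1 of the 3 MK2-/- medium arrays. Slc2a3 was not called without any of the MK2-/- medium arrays or without LPS replicate 2. Pfkl was not called without MK2/3-/- medium replicate 1, 3 or 4 or LPS replicate 1, 2 or 3. The methods' t-test lost 7 of 28 calls, namely Eno2 in wt and MK2/3-/-, Slc2a3, Pfkp and Pfkfb4 in MK2-/-, and Hk2 and Slc16a1 in MK2/3-/- BMDM, and fits of only the groups compared lost Pfkp, Hk2 and the MK2/3-/- call of Eno2. The t-test was not run on differences of responses. The causes were not tested. With 3 or 4 arrays a group, the standard errors of the 32 genes were 0.11 to 0.63 for genotype differences, which limits the differences that could be resolved.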

Other observations

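The genes that carry pyruvate into the mitochondrial cycle were listed for context, with earlier results known. Dld, the subunit that pyruvate and 2-oxoglutarate dehydrogenase share, rose by 0.54, 0.52 and 0.41 on the log2 scale in wt, MK2-/- and MK2/3-/- BMDM, and it was also called higher in all 3 genotypes under 75th percentile scaling. Pdp2, a phosphatase that activates pyruvate dehydrogenase, changed by -0.68, -0.81 and -0.93 and was called lower in each, although its wt call was lost under 75th percentile scaling and under normexp correction. In MK2/3-/- BMDM the 9 genes called lower were Pdp2, Pdhx, Mpc2, Idh3b, Idh3g, Suclg1, Sdhb, Sdhd and Fh1, with Fh1 at -0.69 and Sdhb at -0.40. Under 75th percentile scaling Pdp2 alone of these 9 was called. Of the HIF pathway genes outside the set of 32, Arnt, the partner subunit of HIF-1, changed by -0.75 in MK2-/- and -0.73 in MK2/3-/- BMDM, where it was called lower. The hexokinase-like Hkdc1 and the insulin-regulated transporter Slc2a4 were above background on 0 of 4 wt medium arrays.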
